A study of Mus musculus with 10 samples.

Results

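The 7 genes Selenop, Lair1, Serpina3g, Gmfg, Serpinb1a, AB124611 and Cd276 were chosen by their lower counts at day 5 in leukaemic progenitor cells of the mouse DIN model after doxycycline. They are 7 of 52636 genes in the count table and 7 of 15916 genes with enough counts to be tested. The model comes from fetal liver cells that carried MSCV vectors for DNMT3A R882H, IDH2 R140Q and NRAS G12D, and doxycycline turns off the DNMT3A R882H vector. Cryopreserved cells of moribund animals went into Ptprca recipient mice, which then had either doxycycline in their chow and water (off) or normal chow and water (on). The groups were day 5 off (2 libraries), day 5 on (2 libraries), day 14 off (4 libraries) and day 14 on (2 libraries). All groups shared the 3 vectors and the Ptprca recipients. None had doxycycline in the absence of the regulated vector, so what doxycycline does by itself and what the loss of DNMT3A R882H does cannot be told apart. The sort from bone marrow and spleen kept cKit+ cells without Cd11b. The labels name neither the organ nor the mouse of a library, so p-values measure only the spread between these libraries, which may be technical.

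DNMT3A adds methyl groups to cytosine in CG pairs of DNA, and the R882H change is a recurrent mutation of human acute myeloid leukaemia. The 7 genes have unlike products. Lair1 is a receptor for collagen that dampens leukocyte signalling through the phosphatases it recruits, and Cd276 (B7-H3) is a surface protein of the B7 family of T cell regulators. AB124611 is the mouse counterpart of human HIDE1, a membrane protein of myeloid cells. Serpinb1a inhibits the serine proteases stored in neutrophil granules, and Serpina3g inhibits cathepsins inside leukocytes. Gmfg, a small relative of cofilin, binds the Arp2/3 complex and takes apart actin branches. Selenop is a secreted protein that carries selenium to cells.

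Libraries held 9292644 to 14340624 counts of reads from transcript 3′ ends, and log2 CPM of libraries correlated at 0.953 to 0.983 within groups and 0.897 to 0.970 between groups. CPM, the count relative to the library total on the usual scale, is TMM-scaled here, and the log2 change is off over on. Its standard error, given after ± unless SD is stated, is the size of the change divided by the square root of the edgeR F statistic. Kit, the gene of the sorted receptor, was at 43.3 and 40.3 CPM in day 5 off libraries and 51.3 and 56.2 CPM in day 5 on libraries. It was at 30.9 to 36.4 CPM in day 14 off libraries and 88.9 and 98.1 CPM in day 14 on libraries. Itgam, which encodes Cd11b, lay between 2.07 and 21.9 CPM in all libraries. Mouse Dnmt3a had a log2 change of 0.15 ± 0.19 at day 5 and fell by 0.90 ± 0.16 at day 14 (edgeR adjusted p = 0.00186). A 3′ tag of mouse Dnmt3a need not come from the vector, so these values do not check the labels.

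Marker genes of other cell types differed between the groups. Of 20 erythroid marker genes, 12 rose and 0 fell at day 14 (edgeR at an adjusted p of 0.05, and 17 were higher and 0 lower at an unadjusted p under 0.05). DESeq2 called 16 of them higher and 0 lower, and limma voom 14 higher and 0 lower. Their summed level was 4323 to 5591 CPM in day 14 off libraries and 1713 to 2437 CPM in day 14 on libraries. At day 5 it was 1227 and 2731 CPM off and 1578 and 3703 CPM on. Within these day 5 sums, Hbb-bt alone gave 580 and 1096 CPM off and 975 and 2416 CPM on. For day 5, edgeR called 3 erythroid genes higher and 0 lower, with 10 higher and 1 lower at an unadjusted p under 0.05. DESeq2 called 9 higher and 1 lower, and limma voom 0 of either. Of 11 monocyte markers, 7 fell at day 14, with summed levels of 860 to 1761 CPM off and 2403 and 811 CPM on. At day 5 edgeR called 0 monocyte genes lower and 0 higher, with 2 higher and 0 lower at an unadjusted p under 0.05, and DESeq2 and limma voom called 0. Monocyte sums were 1841 and 1182 CPM in day 5 off libraries and 1725 and 629 CPM in day 5 on libraries. Of 11 neutrophil markers, 2 fell and 1 rose at day 14, with sums of 795 to 1226 CPM in day 14 off libraries and 1853 and 1178 CPM in day 14 on libraries. At day 5 neutrophil sums were 682 and 676 CPM off and 1828 and 973 CPM on, and edgeR called 0 of the 11 lower, with 6 lower at an unadjusted p under 0.05, DESeq2 calling 3 lower and limma voom 0. Of 5 tested B cell markers, 1 fell at day 14, Ighm by 1.66 ± 0.19 (edgeR adjusted p = 0.000176). B cell sums were 84.5 and 63.6 CPM in day 5 off libraries and 127 and 129 CPM in day 5 on libraries. They were 51.3 to 106 CPM in day 14 off libraries and 218 and 153 CPM in day 14 on libraries. Ighm alone gave 70.9 and 50.1 CPM in day 5 off libraries and 110 and 112 CPM in day 5 on libraries. It gave 166 and 131 CPM in day 14 on libraries, so these sums largely follow 1 gene. Ms4a1 went the other way, with changes of 0.20 ± 0.31 at day 5 and 0.57 ± 0.27 at day 14, neither called. Of 9 tested T and NK cell markers, 3 fell and 1 rose at day 14, with sums of 96.4 to 157 CPM off and 112 and 140 CPM on. At day 5 these sums were 161 and 245 CPM off and 154 and 100.0 CPM on. Of 11 tested dendritic cell markers, 1 fell at day 14, with sums of 2712 to 6189 CPM off and 6465 and 2983 CPM on, and at day 5 they were 5139 and 3803 CPM off and 4547 and 2471 CPM on. Of 14 tested macrophage markers, 2 fell and 1 rose at day 14, with sums of 57.5 to 89.3 CPM off and 76.9 and 55.9 CPM on, and at day 5 they were 44.1 and 39.8 CPM off and 41.7 and 44.5 CPM on. Kit and Itgam, whose products were used for sorting, and Cd34 and Ptprc, genes of progenitors and leukocytes, were all 4 lower at day 14. These counts stand beside 14.9% of all tested genes called lower and 16.9% called higher at day 14. At day 5, of 15916 tested genes, edgeR gave 1220 lower and 1154 higher at an unadjusted p under 0.05. DESeq2 called 162 genes lower and 310 higher at day 5, and limma voom 0 and 0. For day 14, the share of all genes at an unadjusted p, by DESeq2 or by limma voom is not given. In sorted bulk cells, fewer cells of a type and less RNA per cell cannot be told apart, and the part of these marker changes in the results was not tested.

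All 7 genes were lower in both day 5 off libraries than in both day 5 on libraries. They were chosen for falling at day 5, so this is not a separate result. How these 7 were taken from the genes called lower at day 5 is not given. The choice used the edgeR test at day 5, with adjusted p-values of the 7 genes between 0.0227 and 0.0402. At day 5, 0.113% of tested genes were called lower (18 genes, 7 of them these) and 0.371% were called higher (59 genes), while 20.9% of tested genes had every off library below every on library. Just inside the adjusted p threshold of 0.05 lay Pdp1 at 0.0481, and just outside it lay Gm13822 and Gm4262 at 0.0507 and Ldlrad4 at 0.0519. The day 5 calls rest on the settings, and under 8 of 18 alternatives none of the 7 genes was called at day 5, although all 7 were lower off in each. The levels of the day 14 libraries did not choose the genes, but the fit that chose them took its estimate of the spread from all 10 libraries, so the day 14 tests are not wholly separate from the choice. Fitted on the day 14 groups alone, 6 of the 7 genes were also called lower at day 14. At day 14, 6 of the 7 genes fell, 0 rose, and Serpina3g was not called. Of all tested genes, 14.9% were called lower and 16.9% higher at day 14, and 24.6% had every off library below every on library. By that last measure all 7 genes were apart, Serpina3g by a gap of under 0.1 CPM. The median log2 change was -2.11 for the 7 genes at day 14 and 0.01 for all tested genes.

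**Figure D1:**
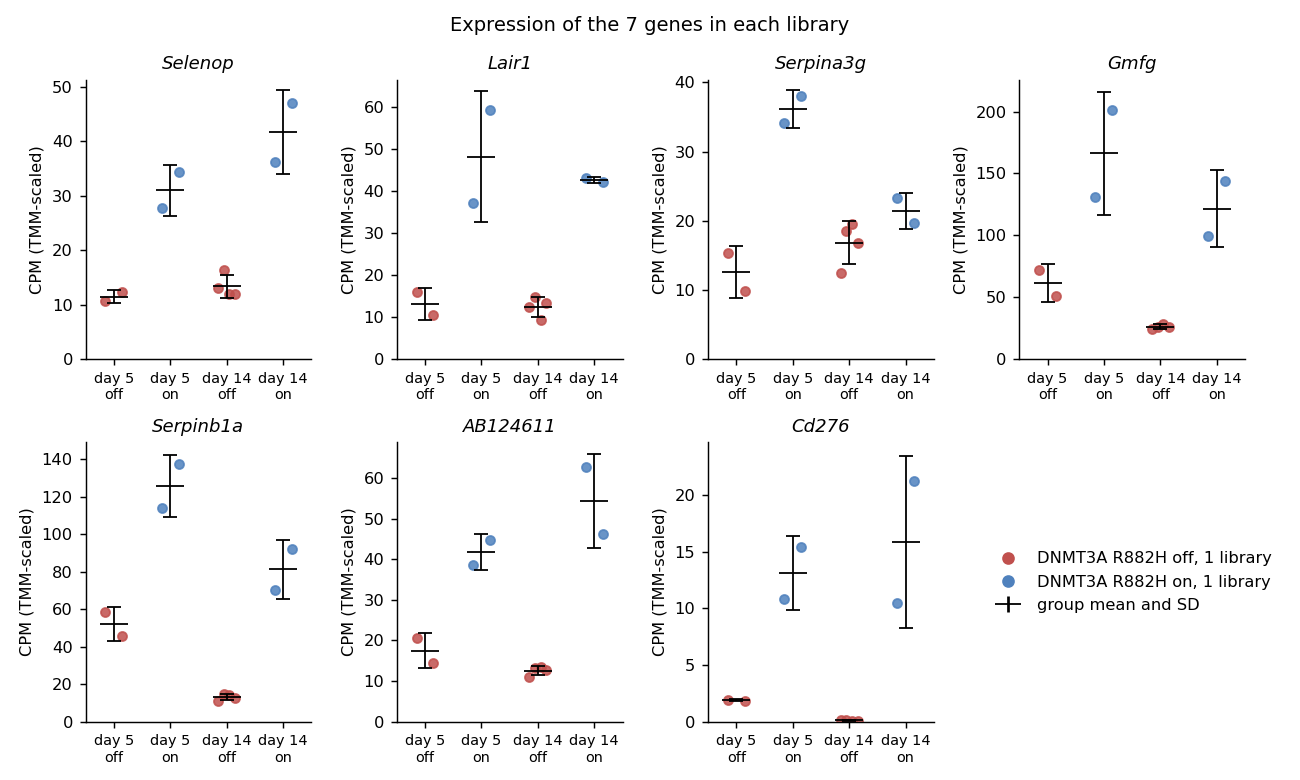
TMM-scaled CPM (vertical axes from 0) of each of the 7 genes in single libraries, by day and by DNMT3A R882H off or on. Red points are off libraries and blue points are on libraries, with the group mean and SD in black (n = 4 for day 14 off, n = 2 for the others). Every off library lies below every on library of its day, with Serpina3g at day 14 closest.

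Lair1, the inhibitory collagen receptor (chr7:4003402-4063204, minus strand, mm10), was lower off than on at both days, by nearly the same ratio. It had 15.9 and 10.4 CPM in day 5 off libraries and 37.1 and 59.2 CPM in day 5 on libraries. It had 12.4, 14.8, 9.22 and 13.3 CPM in day 14 off libraries and 43.1 and 42.1 CPM in day 14 on libraries. No off library of either day reached the lowest on library. Its means were 12.4 ± 2.35 CPM in day 14 off libraries (SD, n = 4) and 42.6 ± 0.724 CPM in day 14 on libraries (SD, n = 2). Lair1 fell by 1.78 ± 0.23 on the log2 scale at day 14 (edgeR adjusted p = 0.000365). The off mean was 27.3% of the on mean at day 5 and 29.2% at day 14.

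Cd276, the B7 family protein (chr9:58524298-58555437, minus strand), fell furthest of the 7. It had 1.96 and 1.87 CPM in day 5 off libraries and 10.8 and 15.4 CPM in day 5 on libraries. It had 0.169, 0.146, 0.0688 and 0.0941 CPM in day 14 off libraries and 10.5 and 21.2 CPM in day 14 on libraries. The 4 day 14 off libraries therefore stand below the day 5 off libraries, which in turn stand below all on libraries. The day 14 off values rest on 2, 2, 1 and 1 counts, against 101 and 235 counts in the day 14 on libraries. Summed over the group, the day 14 off level was 0.731% of the on level, with an exact binomial 95% interval of 0.266% to 1.61% that covers counting error only. The fitted log2 change was -6.94 ± 0.41 (edgeR adjusted p = 1.56e-05), a value that depends on the prior count. Its ± comes from the test statistic and is narrower than counting error on so few counts allows. By the counting interval, the on level was 62.2 to 375 times the off level. At day 5 the off mean was 14.6% of the on mean.

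AB124611, the HIDE1 counterpart (chr9:21526176-21545333, plus strand), was lower off at both days. It had 20.5 and 14.5 CPM in day 5 off libraries and 38.6 and 44.8 CPM in day 5 on libraries. It had 11.0, 13.1, 13.4 and 12.8 CPM in day 14 off libraries and 62.6 and 46.2 CPM in day 14 on libraries. The off libraries of day 14 lie below those of day 5, and the on libraries of day 14 lie above those of day 5. Its means were 12.6 ± 1.08 CPM in day 14 off libraries (SD, n = 4) and 54.4 ± 11.6 CPM in day 14 on libraries (SD, n = 2). AB124611 fell by 2.11 ± 0.18 at day 14 (edgeR adjusted p = 4.78e-05).

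Serpinb1a, the inhibitor of neutrophil serine proteases (chr13:32842092-32851185, minus strand), was lower off at both days. It had 58.5 and 45.7 CPM in day 5 off libraries and 114 and 138 CPM in day 5 on libraries. It had 11.2, 14.8, 14.4 and 12.7 CPM in day 14 off libraries and 70.3 and 92.4 CPM in day 14 on libraries. No groups overlap, and the order from high to low is day 5 on, day 14 on, day 5 off, day 14 off. Its means were 13.3 ± 1.66 CPM in day 14 off libraries (SD, n = 4) and 81.3 ± 15.6 CPM in day 14 on libraries (SD, n = 2). Serpinb1a fell by 2.61 ± 0.17 at day 14 (edgeR adjusted p = 1.79e-05). The off mean was 41.4% of the on mean at day 5 and 16.3% at day 14.

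Serpina3g, the cathepsin inhibitor (chr12:104236245-104241939, plus strand), was the gene without a call at day 14. It had 15.3 and 9.90 CPM in day 5 off libraries and 34.2 and 38.1 CPM in day 5 on libraries. It had 12.4, 18.5, 19.6 and 16.8 CPM in day 14 off libraries and 23.2 and 19.6 CPM in day 14 on libraries. The day 14 on libraries lie below both day 5 on libraries, and the highest day 14 off library lies just below the lowest day 14 on library. Its means were 16.8 ± 3.12 CPM in day 14 off libraries (SD, n = 4) and 21.4 ± 2.56 CPM in day 14 on libraries (SD, n = 2). The log2 change at day 14 was -0.34 ± 0.22 (edgeR adjusted p = 0.257). The off mean was 34.8% of the on mean at day 5 and 78.6% at day 14. Whether the change differs between the days was not tested, since day 5 chose the genes.

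Gmfg, the regulator of actin branches (chr7:28437447-28448233, plus strand), was lower off at both days. It had 72.3 and 50.6 CPM in day 5 off libraries and 131 and 202 CPM in day 5 on libraries. It had 24.6, 26.1, 28.6 and 25.7 CPM in day 14 off libraries and 99.6 and 144 CPM in day 14 on libraries. The day 14 off libraries are close to each other and below the day 5 off libraries, while the on libraries of the days overlap. Its means were 26.3 ± 1.70 CPM in day 14 off libraries (SD, n = 4) and 122 ± 31.2 CPM in day 14 on libraries (SD, n = 2). Gmfg fell by 2.21 ± 0.20 at day 14 (edgeR adjusted p = 6.35e-05). A processed pseudogene, Gmfg-ps, had 4 to 11 counts in day 14 off libraries and 14 and 25 counts in day 14 on libraries, and it fell by 1.80 ± 0.57 (edgeR adjusted p = 0.0342). This call was lost without either day 14 on library (adjusted p = 0.0579 and 0.211), without day 14 off replicates 1, 2 or 4 (0.0675 to 0.0727) and with the replicate block (0.0744). Reads that the authors' counting could place in either copy are uncertain, and Gmfg itself had 273 to 2685 counts.

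Selenop, the selenium carrier (chr15:3268547-3280508, plus strand), was low off and higher on at both days. It had 10.6 and 12.3 CPM in day 5 off libraries and 27.7 and 34.2 CPM in day 5 on libraries. It had 13.1, 16.4, 12.0 and 12.0 CPM in day 14 off libraries and 36.2 and 47.1 CPM in day 14 on libraries. The off libraries of the days overlap, and the day 14 on libraries lie above the day 5 on libraries. Its means were 13.4 ± 2.10 CPM in day 14 off libraries (SD, n = 4) and 41.6 ± 7.70 CPM in day 14 on libraries (SD, n = 2). Selenop fell by 1.64 ± 0.18 at day 14 (edgeR adjusted p = 0.000139). Hepatocytes are a main source of Selenop in the body. Their genes Alb, Ttr, Serpina1a and Fgb were at 0 in every library. Apoa1, the other gene listed for them, had 0.0812 CPM in day 5 off replicate 2 and 0 in the other libraries. Which cells the Selenop counts came from was not tested.

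**Figure D2:**
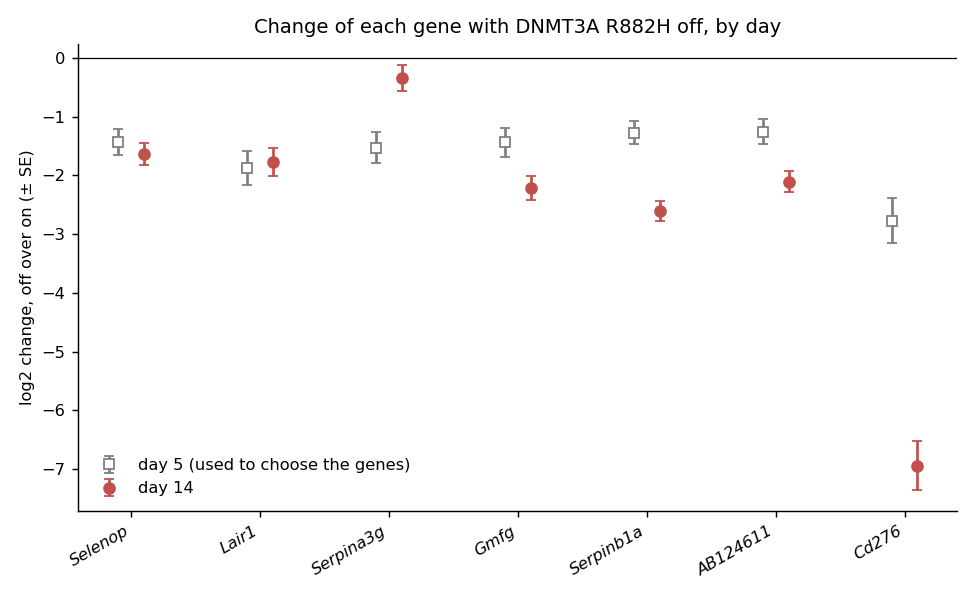
Log2 change off over on with its standard error (vertical axis) for each of the 7 genes, at day 5 (open squares, the values used to choose the genes) and at day 14 (filled circles). At day 14 the change runs from -6.94 for Cd276 to -0.34 for Serpina3g.

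Within the off arm, the 7 genes went different ways between the days. Cd276 at day 14 off stood at 6.26% of its day 5 off mean, Serpinb1a at 25.5% and Gmfg at 42.8%. AB124611 stood at 71.8%, Lair1 at 94.7%, Selenop at 117% and Serpina3g at 134% of their day 5 off means. Within the on arm, the day 14 mean ran from 59.3% of the day 5 mean for Serpina3g to 134% for Selenop. These ratios share the day 5 libraries that chose the genes and carry no test. By the root mean square difference of gene-centred log2 CPM over the 10 libraries, the closest pairs were Lair1 with AB124611 at 0.32 and Gmfg with Serpinb1a at 0.33. The pair furthest apart was Serpina3g with Cd276 at 2.26.

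The genes outside the 7 with the most similar profiles were named by the same measure among 8303 genes whose mean log2 CPM reached 3. Predicted gene models, genes with only clone-style names or IDs, and mitochondrial transfer RNAs were left out of the 8303. For Selenop they were Spata13 at 0.25 and Foxp1 at 0.25, and for Lair1 they were Akap13 and Atp2b4, both at 0.37. For Serpina3g they were H2-Q6 at 0.28 and Tulp2 at 0.32. For Gmfg they were Med12l at 0.19 and Pdp1 at 0.22, and for Serpinb1a they were Tmem173 at 0.22 and Mgst2 at 0.31. For AB124611 they were Ighm at 0.23 and Gfod1 at 0.23. For Cd276 they were Adgrg3 at 0.82 and Tespa1 at 0.87. The median over all candidates ran from 0.65 for Serpina3g to 2.57 for Cd276.

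The promoters of 3 of the genes are printed because their CG content differs widely, CG being the pair that DNMT3A methylates. RefSeq windows of 250 bases before to 50 bases after a start (GRCm38.p6) were found for 6 of the 7 genes, 9 windows in all; Serpinb1a had none. Methylation was not measured. The sequences run 5′ to 3′ on the gene's strand in lower case, with each CG in capitals. The Lair1 window is chr7:4063155-4063454 on the minus strand, the Serpina3g window is chr12:104235897-104236196 on the plus strand, and the Cd276 window is chr9:58554984-58555283 on the minus strand.
Lair1: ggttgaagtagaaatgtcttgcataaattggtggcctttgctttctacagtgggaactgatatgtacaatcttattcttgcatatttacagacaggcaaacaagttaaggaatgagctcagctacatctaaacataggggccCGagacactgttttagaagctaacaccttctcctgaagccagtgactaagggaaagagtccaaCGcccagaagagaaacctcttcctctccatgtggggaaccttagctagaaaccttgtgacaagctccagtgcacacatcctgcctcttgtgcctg
Serpina3g: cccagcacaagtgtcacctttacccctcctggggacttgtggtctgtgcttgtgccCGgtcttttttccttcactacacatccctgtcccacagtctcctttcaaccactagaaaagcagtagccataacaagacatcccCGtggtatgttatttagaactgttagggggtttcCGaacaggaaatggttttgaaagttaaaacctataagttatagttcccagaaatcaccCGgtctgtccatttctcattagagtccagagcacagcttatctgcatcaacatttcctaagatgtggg
Cd276: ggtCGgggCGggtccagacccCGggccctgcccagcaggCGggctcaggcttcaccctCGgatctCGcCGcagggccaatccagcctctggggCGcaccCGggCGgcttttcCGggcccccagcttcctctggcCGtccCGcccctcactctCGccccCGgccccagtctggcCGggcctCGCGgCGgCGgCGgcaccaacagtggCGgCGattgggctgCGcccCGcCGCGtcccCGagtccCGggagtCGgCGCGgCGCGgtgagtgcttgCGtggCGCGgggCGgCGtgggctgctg
Cd276, with the furthest fall at day 14, had 39 CG in its window, more than 95.6% of the 32851 windows in the RefSeq table. Lair1 had 2 CG, more than 14.1% of windows, and Serpina3g had 4, more than 31.4%. The median window had 7 CG. Windows with at most 5 CG made up 6 of the 9 windows of these genes and 43.6% of all windows. The 9 are not separate genes: Selenop gave 3 overlapping windows with 4, 4 and 8 CG, and Gmfg gave 2 with 5 and 1. AB124611 had 6 CG. The motifs below were looked for on both strands, with no account of overlap between motifs. The motif of erythroid GATA factors, spelled AGATAA, was in the Serpina3g window and in 11.2% of all windows. GAGGAAGT, a PU.1 motif, was in 2 of the 3 overlapping Selenop windows and in 3.20% of all windows. TTCNNNGAA, a STAT motif, was in the Serpina3g window and in 8.30% of all windows, and TTGCNNAA, a C/EBP motif, was in the Lair1 window and in 10.8% of all windows. A match describes letters and not a bound site.

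Genes with related functions were compared at day 14. For fits without 1 library or with the replicate block, no share of all genes stands beside the list counts. Among fits with a library left out, calls over all genes were also fewest without day 14 on replicate 1. List counts from these fits therefore do not set a list apart from other genes. The day 5 counts of these genes stand beside 1220 of 15916 tested genes lower and 1154 higher at an unadjusted p under 0.05 by edgeR. Over all genes at day 5, DESeq2 called 162 lower and 310 higher, and limma voom 0 of either. Of 22 other tested genes of inhibitory leukocyte receptors, phosphatases and the kinase Csk, 13 fell and 0 rose at day 14 by edgeR. Beside this, 14.9% of all tested genes were called lower and 16.9% higher. At an unadjusted p under 0.05, 15 of the 22 were lower and 0 higher. DESeq2 called 13 of them lower and limma voom 12, and each called 0 higher. The shares of all genes at an unadjusted p, by DESeq2 and by limma voom are not given for day 14. Ceacam1, an inhibitory adhesion receptor, fell by 2.53 ± 0.30 (edgeR adjusted p = 0.000203), to 1.70 ± 0.462 CPM in day 14 off libraries (SD, n = 4), against 9.87 ± 1.57 CPM in day 14 on libraries (SD, n = 2). Pecam1, an adhesion receptor of leukocytes and endothelium, fell by 2.13 ± 0.29 (0.000506), Milr1, a mast cell receptor, fell by 1.53 ± 0.20 (0.000342) and Cd72, an inhibitory co-receptor of B cells, by 1.44 ± 0.20 (0.000462). The median of the 22 was -1.08, beside 0.01 for all tested genes, and this list includes Ptpn6, the phosphatase SHP-1, which fell by 0.61 ± 0.17 (0.0183). Without day 14 on replicate 1, 8 of the 22 were called lower, and Ptpn6 was not called (-0.43, adjusted p = 0.170). At day 5 edgeR called 0 of the 22 lower and 0 higher, with 4 lower and 1 higher at an unadjusted p under 0.05. DESeq2 called 2 lower and 0 higher at day 5, and limma voom 0 of either.

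Of 20 other tested serpins and proteases, 7 fell and 3 rose at day 14, beside 14.9% of all tested genes called lower and 16.9% called higher. The proteases are not all known targets of these serpins. Ctsl, a cathepsin, rose by 2.40 ± 0.35 (edgeR adjusted p = 0.000631), to 39.4 ± 8.30 CPM in day 14 off libraries (SD, n = 4), against 7.48 ± 0.0245 CPM in day 14 on libraries (SD, n = 2). Casp1, the inflammasome caspase, fell by 1.92 ± 0.26 (0.000397), Ctsc, which activates granule proteases, by 1.47 ± 0.22 (0.000807) and Ctsh, an aminopeptidase, by 1.52 ± 0.30 (0.00356). Ctsg, cathepsin G and a target of Serpinb1a, fell by 2.69 ± 0.70 (0.0155), while Elane and Prtn3, the other targets, had changes of -1.02 ± 0.95 (0.449) and -1.19 ± 0.76 (0.267). Without day 14 on replicate 1, 4 of the 20 were called lower and 1 higher, and Ctsg was not called (-1.69, adjusted p = 0.194). The paralog next to Serpina3g, Serpina3f, had a change of 0.43 ± 0.48 (0.535) and 1.10 to 2.82 CPM in day 14 off libraries. The other Serpina3 paralogs in the list, Serpina3c, Serpina3h, Serpina3i, Serpina3k, Serpina3m and Serpina3n, and Serpinb1b and Serpinb1c, did not pass the low-count filter. At day 5 edgeR called 0 of the 20 lower and 0 higher, with 3 lower and 3 higher at an unadjusted p under 0.05. DESeq2 called 1 lower and 0 higher at day 5, and limma voom 0 of either.

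Of 33 other tested genes of the cofilin family and the Arp2/3 actin network, 8 fell and 3 rose at day 14, beside 14.9% of all tested genes called lower and 16.9% called higher. Cttn, cortactin, which holds actin branches, was at 0.508, 0.220, 0.482 and 0.376 CPM in day 14 off libraries and 9.64 and 33.0 CPM in day 14 on libraries. It fell by 5.72 ± 0.50 (edgeR adjusted p = 5.73e-05), a size that depends on the prior count. Wipf1 fell by 1.17 ± 0.13 (0.000144), Coro1a, which binds actin filaments, by 1.61 ± 0.25 (0.000999) and Limk1, a kinase of cofilin, by 1.07 ± 0.20 (0.00259). Gmfb, the closest relative of Gmfg, had a change of 0.11 ± 0.11 (0.474). The list had 4 genes called lower without day 14 on replicate 1, 1 called higher without day 14 on replicate 2, and 15 called lower with the replicate block. At day 5 edgeR called 0 of the 33 lower and 0 higher, with 2 lower and 3 higher at an unadjusted p under 0.05. Neither DESeq2 nor limma voom called any of them at day 5.

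Of 26 other tested selenium and selenoprotein genes, 3 fell and 6 rose at day 14, beside 14.9% of all tested genes called lower and 16.9% called higher. Gpx4, which removes lipid peroxides, rose by 0.78 ± 0.14 (edgeR adjusted p = 0.00232), Txnrd2, a mitochondrial thioredoxin reductase, by 1.30 ± 0.25 (0.00279) and Scly, which frees selenium from selenocysteine, by 0.97 ± 0.19 (0.00348). Dio2, a deiodinase, fell by 2.88 ± 0.53 (0.00238). Lrp8, a receptor that takes up Selenop in mice, rose by 1.24 ± 0.30 (0.00913), a call lost without either day 14 on library (adjusted p = 0.0530 and 0.0635). Without day 14 on replicate 1, 1 of the 26 was called lower and 3 higher. At day 5 edgeR called 0 of the 26 lower and 0 higher, with 1 lower and 4 higher at an unadjusted p under 0.05. DESeq2 called 0 lower and 1 higher at day 5, and limma voom 0 of either.

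Of 12 other tested genes listed with the B7 and CD28 family, some from outside it such as Treml2, 3 fell and 0 rose at day 14 by edgeR. Beside this, 14.9% of all tested genes were called lower and 16.9% higher. At an unadjusted p under 0.05, 5 of the 12 were lower and 0 higher. DESeq2 and limma voom each called 3 lower and 0 higher. Shares of all genes by these last measures are not given for day 14. Pdcd1, the receptor PD-1, fell by 2.47 ± 0.50 (adjusted p = 0.00473), Treml2, a receptor reported for Cd276 in mice, by 1.17 ± 0.23 (0.00312) and Icosl, the ICOS ligand, by 1.02 ± 0.29 (0.0221). Cd274, the ligand of PD-1, had a change of -1.06 ± 0.45 (0.0956). The call of Pdcd1 was lost without day 14 on replicate 2 (adjusted p = 0.0828) and that of Icosl without day 14 on replicate 1 (0.173), while 5 of the 12 were called lower without day 5 on replicate 1. At day 5 edgeR called 0 of the 12 lower and 0 higher, with 1 lower and 1 higher at an unadjusted p under 0.05. Neither DESeq2 nor limma voom called any of them at day 5.

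**Figure D3:**
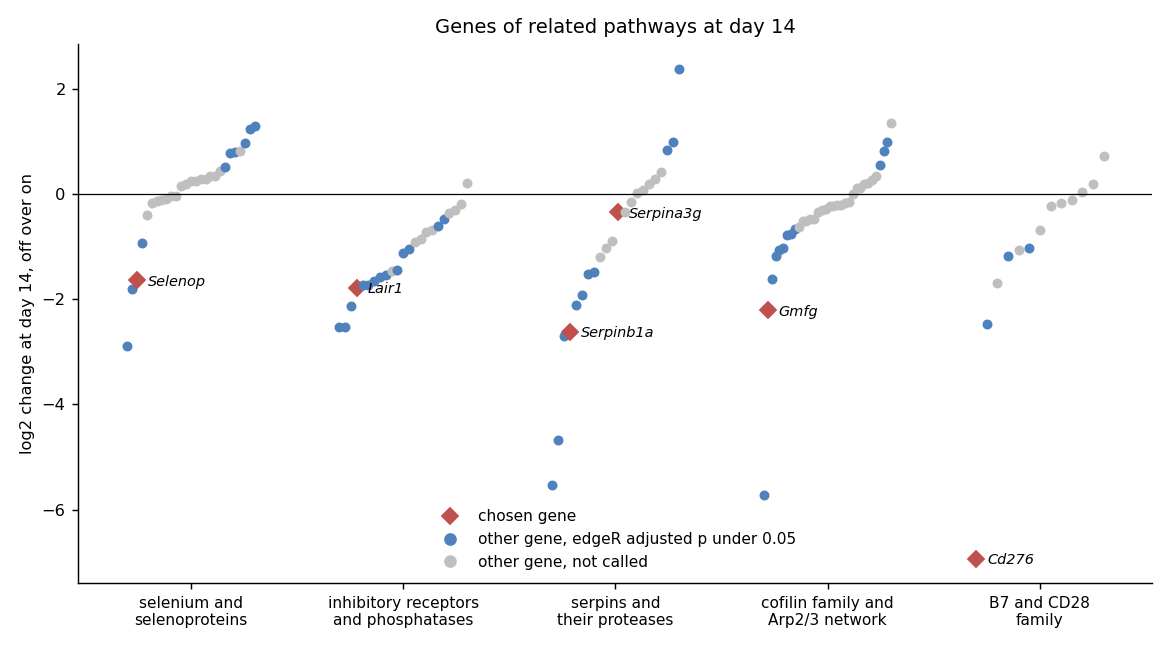
Log2 change at day 14, off over on (vertical axis), for each tested gene of 5 related gene lists, in order within each list. Red diamonds are the chosen genes, blue points are other genes past an edgeR adjusted p of 0.05 and grey points are not called. Cd276 is lowest in its list, while Gmfg lies above Cttn, Selenop above Dio2 and Selenon, Serpinb1a above Serpinb10, Serpinb2 and Ctsg, Lair1 above Ceacam1, Sirpa and Pecam1, and Serpina3g was not called.

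The genes next to the 7 on the chromosome were also examined. Of 13 nearest tested protein-coding neighbours, 4 fell, 2 rose and 7 were not called at day 14, beside 14.9% of all tested genes called lower and 16.9% called higher. Samd4b, whose annotated span overlaps that of Gmfg on the opposite strand, fell by 0.56 ± 0.19 (edgeR adjusted p = 0.0477). Carm1, 1561 bases from AB124611 on its strand, had a change of -0.03 ± 0.14 (0.903). Nptn and Stoml1, on either side of Cd276, fell by 0.81 ± 0.18 (0.00552) and 0.89 ± 0.18 (0.00388), and Serpinb6b, beside Serpinb1a, rose by 1.01 ± 0.24 (0.00991). Lilra6, beside Lair1, fell by 2.10 ± 0.64 (0.0280). Samd4b, Nptn, Serpinb6b, Lilra6 and Tmed1 (beside AB124611, 0.59 ± 0.21, adjusted p = 0.0471) lost their calls when day 14 on replicate 1 was left out (adjusted p = 0.272, 0.0854, 0.116, 0.322 and 0.395). Those of Samd4b and Tmed1 were lost in most other fits without 1 library, that of Samd4b also without scaling and without the low-count filter (0.0545 and 0.0669), that of Tmed1 also with RLE scaling, without scaling, without the low-count filter, with the filter at 5 CPM and with DESeq2 (adjusted p up to 0.0735), and that of Lilra6 without day 14 off replicates 1 and 2 (0.0638 and 0.0557). Exons of Selenop overlap those of Ccdc152 on the opposite strand, which had 0 to 2 counts in any library, and exons of Cd276 overlap those of Gm10657, which had 0 to 4 counts.

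**Figure D4:**
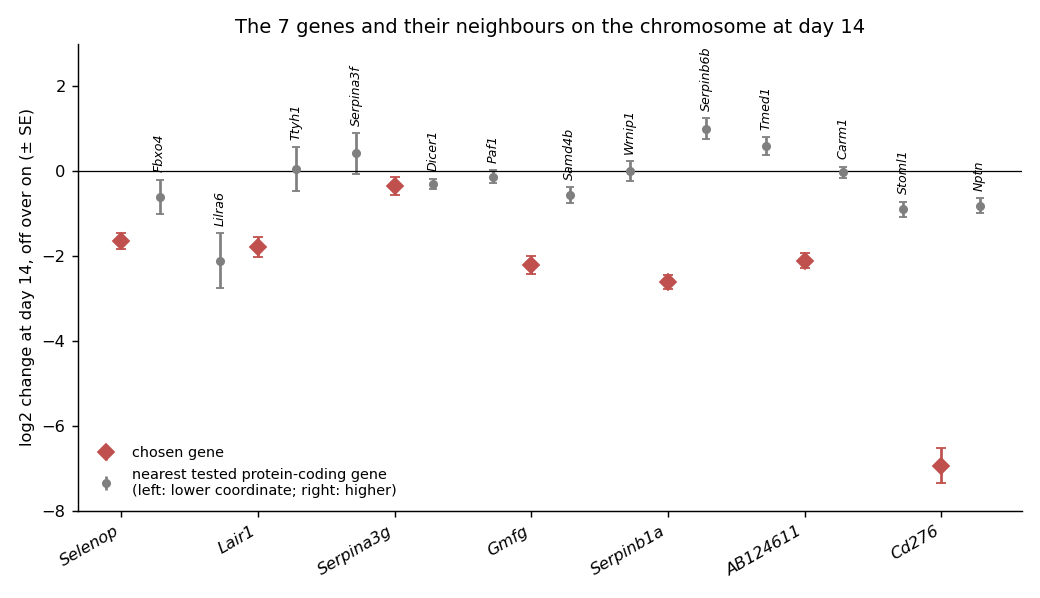
Log2 change at day 14, off over on, with its standard error (vertical axis) for the 7 genes (red diamonds) and the nearest tested protein-coding gene on each side (grey points, lower coordinate left and higher coordinate right). Except Lilra6 beside Lair1, at -2.10, the neighbours lie above their chosen gene, between -0.89 and 1.01.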

How the data were processed

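Gene expression was measured in 10 libraries of sorted DIN cells. The authors deposited raw counts per Ensembl gene in 1 table; per the labels' protocols, libraries were QuantSeq 3′ mRNA, sequenced single-end. Per the submitters' processing notes, the build was mm10, the aligner listed was HISAT2 2.0.4 and the counter listed was featureCounts (Subread 2.0.0); cutadapt 1.14, limma 3.48.3, edgeR 3.34.0 and bcl2fastq 2.17.1.14 stand there too. Not given in the sources used here are the annotation release and whether counting used strand. Symbols and positions came from GENCODE M21, which matched 52489 of 52636 gene IDs.

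Tests ran in edgeR 4.0.16 under R 4.3.3, with DESeq2 1.42.0 and limma 3.58.1 as alternatives. Genes passed filterByExpr, libraries were TMM-scaled, and a robust quasi-likelihood fit of all 10 libraries with a mean per group was tested for off over on, with Benjamini-Hochberg adjustment over 15916 genes and calls at an adjusted p of 0.05. The members and lists were chosen with earlier results of these data known. Named genes were the members, up to 4 genes of smallest p called at day 14 per list, the 2 most similar genes per member, chromosome neighbours, paralogs, and vector and sort genes; those with known links to a member (Ptpn6, Ctsg, Elane, Prtn3, Lrp8, Cd274) were added after their values were seen. A count of 0 allows up to 0.209 to 0.323 CPM (3 counts of the total). Intervals cover counting error only. Alternatives were other scaling, filters and tools, a replicate block, fits of the 2 compared groups alone, and each library left out. The fits were tested on simulated data.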

Additional observations from a re-analysis of the deposited data

Results flagged for a closer look

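Among the 4 day 14 off libraries, Milr1 in replicate 4 stood apart from the others at 7.25 CPM, against 5.00, 5.20 and 5.03 CPM in replicates 1, 2 and 3; its gap to the nearest library was 0.910 of the group's range, above Dixon's 95% critical value for 4 samples. None of the 7 chosen genes had such a library, and chance flags about 1 in 20 groups of this size, of 26 genes examined here.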

How the results depend on the processing

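The day 14 changes of the 7 genes kept their direction and their side of the threshold under all 18 alternatives, 126 of 126 values, and 6 members were called lower in each. The Serpina3g adjusted p ran from 0.152 to 0.606. Leaving out each library gave 1583 to 2955 genes called lower and 1402 to 2891 called higher at day 14, the lowest of both without day 14 on replicate 1. Counts over the related gene lists stayed within 1.5 times in 169 of 180 comparisons. These include the counts of genes called higher in the receptor and B7 lists, which were 0 under all 18 alternatives.

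The day 5 calls, which chose the genes, depended on the settings, although all 126 day 5 values of the 7 genes stayed below 0. Genes called lower at day 5 numbered 434 with no low-count filter, 162 by DESeq2, 0 by limma voom (1192 at an unadjusted p under 0.05), 83 with the replicate block and 0 with only the compared groups (681 at an unadjusted p under 0.05). Leaving out each library gave 0 to 171. Genes called higher numbered 558, 310, 0 (1148 at an unadjusted p under 0.05), 142 and 0 (613 at an unadjusted p under 0.05) under the same settings, and 0 to 133 with a library left out. Under limma voom, with only the compared groups, and without any 1 day 14 off library, day 5 off replicate 2 or day 5 on replicate 2, none of the 7 genes was called at day 5, though all 7 had an unadjusted p under 0.05. The cause was not tested. Scaling by library totals alone, added after the data were seen, called all 7.

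The labels do not say whether replicate numbers pair the samples. Correlations of same-numbered deviations were all positive and ran from 0.03 to 0.33, not all over 0.1. Between groups of 2 libraries both replicates give the same value. Monocyte and dendritic cell sums were higher in replicate 1 than in replicate 2 of every group, and erythroid sums lower. With the replicate block, day 5 calls went from 18 to 83 lower and from 59 to 142 higher. A shared source was not tested. The replicate block changed no day 14 call of the 7 genes. Where a left-out library leaves a group with 1, that library is taken to spread as the other groups do.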

Other observations

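The other 11 genes called lower at day 5 included Chd4, a chromatin remodeller, and Dntt, the polymerase of lymphoid receptor joining. At day 14, 7 of the 11 fell, 0 rose and 4 were not called, beside 14.9% of tested genes called lower. Chd4 had 349 and 309 CPM in day 5 off libraries and 1137 and 2629 CPM in day 5 on libraries, and 477 to 550 CPM in day 14 off libraries and 2959 and 4353 CPM in day 14 on libraries. Dntt fell by 4.19 at day 14 on the log2 scale (edgeR adjusted p = 0.000366), while mt-Ty, a mitochondrial transfer RNA, had a change of 0.27 (0.394).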
